A study of Mus musculus with 12 samples.

Results

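Transcripts of 33 genes that act in the nucleolus to make ribosomes were followed in normal mouse bone marrow and in 3 mouse leukemias. The genes were taken as a fixed list of RNA polymerase I and ribosome assembly genes, chosen with earlier results of these data known. They make up 33 of the 35976 gene symbols in the count table. All 33 passed the filter on low counts that left 15334 genes for testing, and none had fewer than 217 counts in any library. Polyadenylated RNA was sequenced from CD45.2-positive bone marrow cells of C57BL/6 mice, isolated by flow cytometry. CD45.2 is the variant of the white cell surface protein CD45 by which such cells are often told apart from host cells. The 12 libraries form 4 groups of 3. WT libraries come from marrow cells without a fusion. BN1 libraries carry BRD9-NUTM1, a fusion of BRD9, a subunit of a nucleosome remodeller, with the testis protein NUTM1. MA9 libraries carry MLL-AF9 and ME libraries carry MLL-ENL, fusions in which MLL, a regulator of histone methylation, is linked to a partner known from transcription elongation. The labels give no age or further treatment, do not say how the fusions were introduced or whether a leukemia is 1 clone, and leave out whether replicates were separate animals. The p-values therefore measure the spread between these libraries, which may be technical.

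Ribosome production starts in the nucleolus, where RNA polymerase I copies the repeated ribosomal DNA genes into a long precursor RNA. Small nucleolar ribonucleoproteins (snoRNPs) then modify that RNA at sites chosen by their guide RNAs, box C/D particles adding methyl groups and box H/ACA particles turning uridine into pseudouridine. Processing factors cut the precursor and fold it with ribosomal proteins into a small and a large subunit, which leave the nucleus for the cytoplasm. Many of these genes are known as targets of the transcription factor Myc, and their activity is commonly high in growing and dividing blood progenitors.

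Library totals were 18292636 to 25732049 counts. The 33 genes together took 0.222% of all counts in each WT library. Their share was 0.373 to 0.380% for BN1, 0.517 to 0.522% for MA9 and 0.451 to 0.454% for ME. ME replicate 3 stood apart from its group, with a mean chi-square per gene of 32.3 and 35.2 between its counts and those of the other ME libraries, where every other pair within a group gave 2.005 to 7.51. Markers of several mature lineages were high in WT. In CPM, counts scaled to a common library size, the summed level of 10 erythroid markers was 33810 to 43820 for WT, 137 to 165 for BN1, 132 to 137 for MA9 and 79.99 to 104 for ME, and ME had no counts of Slc4a1. Summed levels of 11 mature neutrophil markers were 61565 to 64683 for WT, 5134 to 5362 for BN1, 585 to 626 for MA9 and 584 to 651 for ME, with no marker at 0. The sum of 8 B cell markers was 1062 to 1202 for WT, 4.73 to 5.76 for BN1, 18.1 to 19.3 for MA9 and 1.33 to 1.499 for ME, with Ms4a1 and Ebf1 at 0 in MA9 and Ms4a1 and Pax5 at 0 in ME. The 8 T and NK cell markers summed to 253 to 270.4 for WT, 141 to 147 for BN1, 22.05 to 26.3 for MA9 and 6.89 to 9.17 for ME, with Klrd1 at 0 in BN1 and Cd3g at 0 in ME. The 6 primary granule markers, made by early granulocyte precursors, went the other way. None was at 0, and they summed to 1528 to 1627 for WT, 21447 to 22084 for BN1, 11039 to 11570 for MA9 and 16831 to 17623 for ME. Against WT all 10 erythroid, 8 B cell and 11 neutrophil markers fell in each leukemia, and all 6 primary granule markers rose. Of the T and NK cell markers, 7 fell and 1 rose in BN1, and all 8 fell in MA9 and in ME. In BN1 the median log2 fold change of these 8 was -9.29, while the 1 that rose stood at 1.85. Their summed level in BN1 therefore does not describe most of the list. In such bulk samples fewer cells of a type and less RNA per cell cannot be told apart, and the part of this change of lineage in the results against WT was not tested.

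Each leukemia was first compared with normal marrow. Nearly all of the 33 genes stood higher in the leukemias than in WT, by about 2-fold in MA9 and ME and by less in BN1. Relative to WT, 29 members rose and 2 fell in BN1, 31 rose in MA9 and 31 rose in ME. The background was 38.4% of all tested genes called higher and 40.8% called lower in BN1, 39.3% higher and 40.8% lower in MA9, and 39% higher and 40.2% lower in ME. Among the 8225 genes with a mean level at or above that of the lowest member, 46.9%, 47.3% and 48% were called higher in BN1, MA9 and ME. No member was called lower in MA9 or ME by edgeR, and the count was also 0 at an unadjusted p under 0.05, in DESeq2 and in limma-voom. The median log2 fold change of the members was 0.69 in BN1, 1.10 in MA9 and 1.01 in ME, beside -0.01 in each comparison over all tested genes. By at least 2-fold rose 5 members in BN1, 22 in MA9 and 18 in ME. The share of all tested genes called at this fold was not counted, so none of these 2-fold counts is read as an excess. The 3 comparisons share the WT libraries. Where groups of 3 libraries are said below not to overlap, the share of all tested genes without overlap was not counted. The same 29 members were called higher in all 3 leukemias, as were 25.3% of all tested genes. Nop56 and Rrp1b were called higher in both MLL leukemias but not in BN1, a pattern of 7.91% of all tested genes. Without ME replicate 3, again 31 members were called higher in ME.

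**Figure D1:**
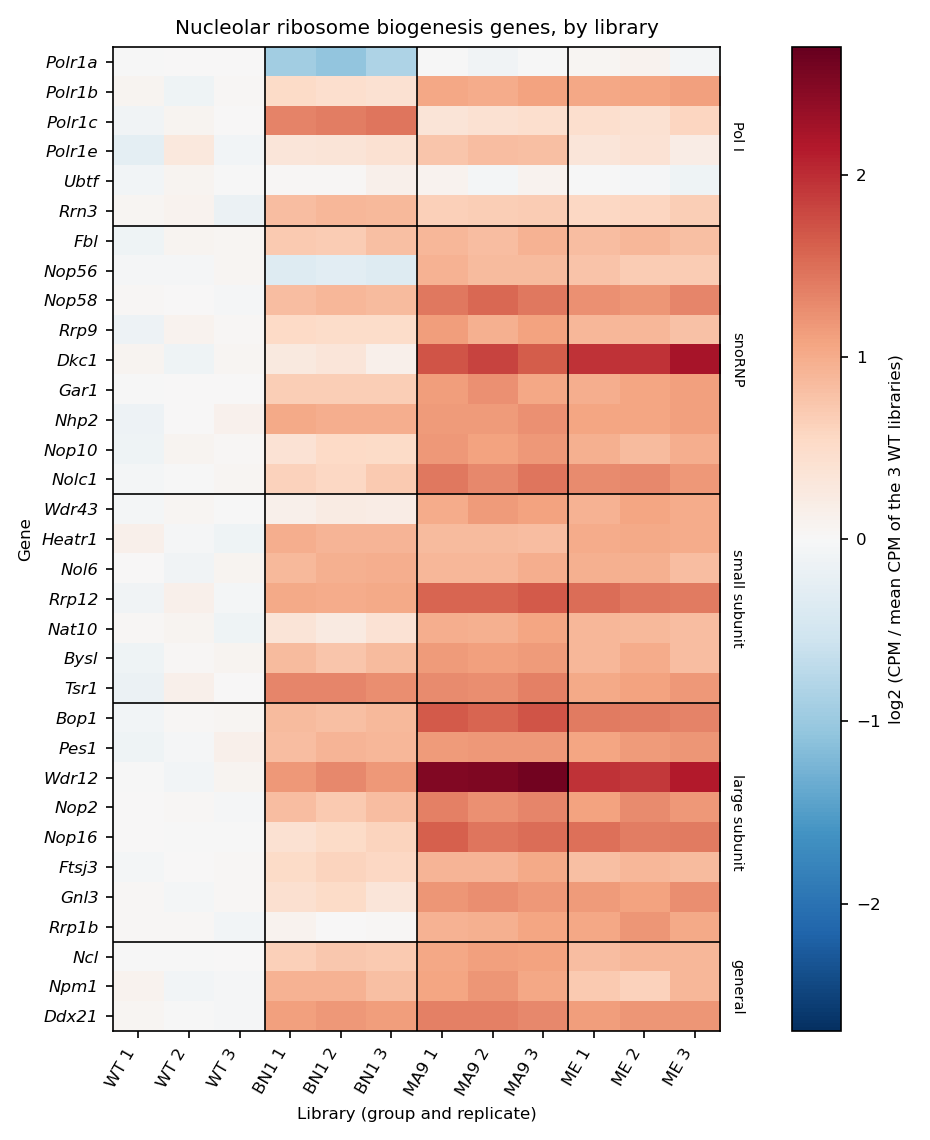
Level of each of the 33 genes (rows, grouped by role) in each of the 12 libraries (columns), as the log2 ratio of its CPM to the mean of the 3 WT libraries. Red cells fill most rows in BN1, MA9 and ME and are deeper in MA9 and ME, while Polr1a and Nop56 are blue in the 3 BN1 libraries.

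**Figure D2:**
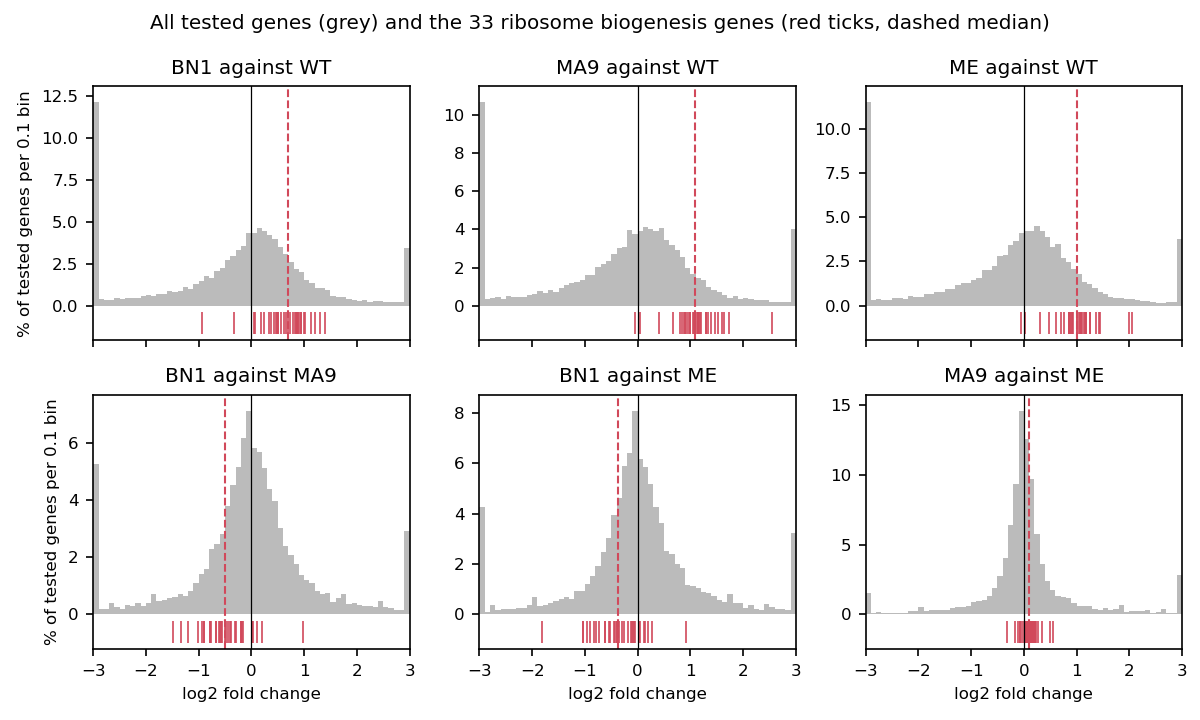
Distribution of log2 fold changes over all 15334 tested genes (grey bars, percent of genes per bin of 0.1, with genes beyond -3 or 3 gathered in the end bars) for the 6 comparisons, with the 33 members as red ticks and their median as a dashed line. Most members lie to the right of 0 against WT, with medians of 0.69, 1.10 and 1.01, and to the left of 0 in BN1 against MA9 and ME, with medians of -0.50 and -0.38.

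RNA polymerase I genes did not move as one. Of 6 members, 4 rose and 1 fell in BN1, and 4 rose in MA9 and in ME, with medians of 0.41, 0.54 and 0.40. Polr1a (chromosome 6, from 71909053 to 71984935 in GRCm38, as are all positions given) encodes the largest subunit of the enzyme, which holds part of the active centre. Its level was 88.99, 89.7 and 89.7 CPM in WT, 46.8, 43.05 and 49.9 CPM in BN1, 88.3, 83.7 and 88.2 CPM in MA9 and 92.2, 95.5 and 86.1 CPM in ME. The 3 BN1 libraries lay far below all others, which lay close together. Polr1a fell in BN1 (-0.94 ± 0.06, adjusted p = 1.4e-14) and was not called in MA9 (-0.05 ± 0.06, adjusted p = 0.46) or ME (0.03 ± 0.06, adjusted p = 0.64). Polr1b, the second largest subunit, which completes the active centre, stood at 26.1, 22.9 and 25.5 CPM in WT, 35.4, 34.1 and 33.05 CPM in BN1, 50.9, 49.7 and 52.96 CPM in MA9 and 51.2, 52.01 and 53.7 CPM in ME. WT was lowest, BN1 lay between, and MA9 and ME overlapped. Polr1b rose by 0.46 ± 0.07 in BN1, 1.04 ± 0.07 in MA9 and 1.07 ± 0.07 in ME.

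Polr1c (chromosome 17, from 46243920 to 46248054), a subunit shared by RNA polymerases I and III, had its highest level in BN1. It measured 23.1, 25.8 and 24.9 CPM in WT, 62.1, 64.4 and 67.3 CPM in BN1, 31.3, 32.5 and 33.9 CPM in MA9 and 33.6, 32.6 and 36.8 CPM in ME. All BN1 libraries lay above all others, and MA9 and ME overlapped above WT. The rise was 1.39 ± 0.07 in BN1 (2.63-fold, adjusted p = 7.4e-17), 0.41 ± 0.07 in MA9 and 0.48 ± 0.07 in ME. Polr1e, a subunit that acts in initiation and elongation, stood at 10.8, 15.98 and 12.3 CPM in WT, 16.4, 16.5 and 17.2 CPM in BN1, 21.9, 23.1 and 23.03 CPM in MA9 and 16.3, 17.1 and 15.003 CPM in ME. MA9 was highest, and ME overlapped both WT and BN1. Polr1e rose by 0.80 ± 0.11 in MA9, 0.36 ± 0.11 in BN1 and 0.31 ± 0.11 in ME (adjusted p = 0.013), where the call was lost without WT replicate 1 (0.19, adjusted p = 0.12) or without ME replicate 2 (0.27, adjusted p = 0.052). In BN1 the call of Polr1e held when any 1 BN1 or WT library was left out, but narrowly. The lowest estimate was then 0.24 and the highest adjusted p 0.049.

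Rrn3, the factor that makes the polymerase ready to start, rose in all 3 leukemias and most in BN1. It was measured at 32.3, 33.5 and 28.3 CPM in WT, 56.03, 58.7 and 57.3 CPM in BN1, 49.2, 49.6 and 50.7 CPM in MA9 and 46.3, 47.1 and 49.6 CPM in ME. WT was lowest and BN1 highest, with no overlap between BN1 and the MLL leukemias. The changes were 0.87 ± 0.06, 0.67 ± 0.07 and 0.60 ± 0.07 in BN1, MA9 and ME. Ubtf, the protein that coats active ribosomal DNA and brings in the polymerase, was the 1 member called in no comparison with WT, as were 5.79% of all tested genes. Its level was 214, 236 and 224 CPM in WT, 229, 229.9 and 248 CPM in BN1, 241, 217 and 239.6 CPM in MA9 and 224, 221 and 209 CPM in ME. Each leukemia overlapped WT, while BN1 lay above ME without overlap, a difference that was not called. The estimates were 0.07 ± 0.05 in BN1 (adjusted p = 0.22), 0.05 ± 0.05 in MA9 (adjusted p = 0.4) and -0.04 ± 0.05 in ME (adjusted p = 0.42). With library size as the only scaling, which raised the median of all genes by 0.12 to 0.17 in BN1 and MA9, Ubtf was called higher in both (0.19 and 0.22), and in MA9 also with upper-quartile scaling (0.12).

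**Figure D3:**
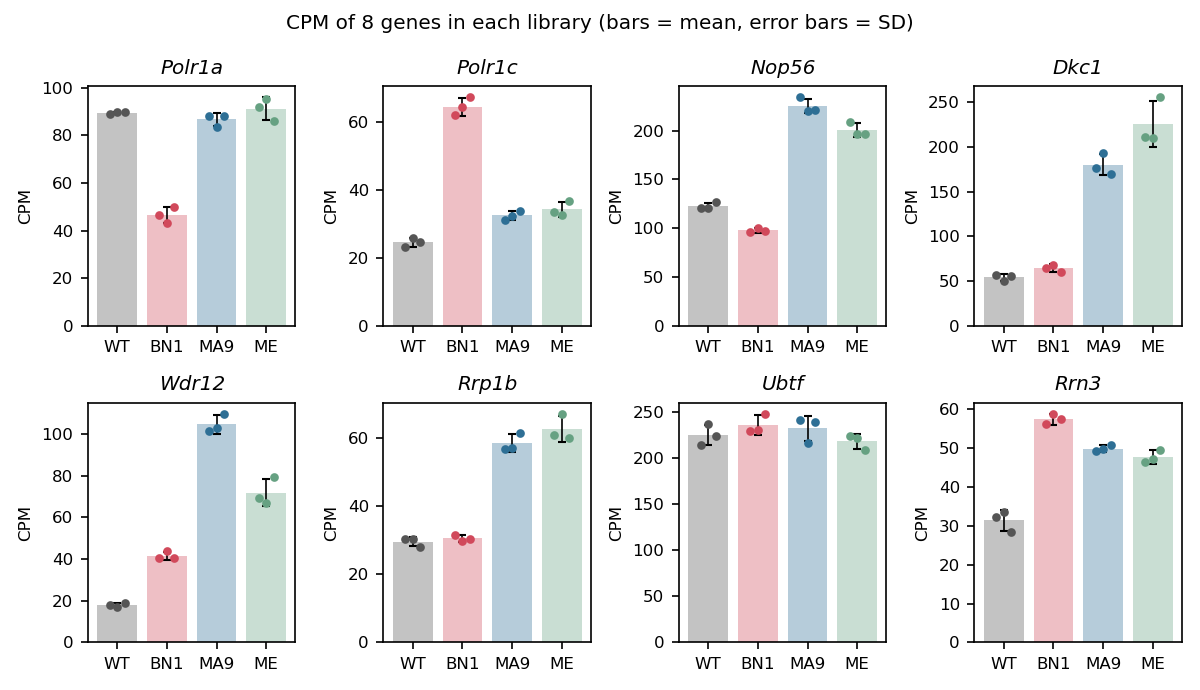
CPM (vertical axes, from 0) of 8 genes in WT, BN1, MA9 and ME, with points for libraries, bars for means and error bars for SD (n = 3). Polr1a and Nop56 are lowest in BN1, Polr1c and Rrn3 highest in BN1, Dkc1 and Rrp1b near the WT level in BN1 and high in MA9 and ME, Wdr12 highest in MA9, and Ubtf overlaps WT in each leukemia.

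The snoRNP genes rose together in MA9 and ME, where all 9 were called higher. In BN1, 8 rose and 1 fell. Their medians were 0.62 in BN1, 1.15 in MA9 and 1.05 in ME. Within the box C/D particle, Fbl encodes fibrillarin, the methyltransferase, and Nop56 and Nop58 are the paired scaffold proteins that hold it on the guide RNA. Nop56 (chromosome 2, from 130274430 to 130279313) stood at 121, 120.4 and 127 CPM in WT, 96.5, 100.5 and 96.8 CPM in BN1, 234, 220.2 and 222 CPM in MA9 and 209, 196 and 197 CPM in ME. BN1 lay below WT, and MA9 and ME lay well above it, each group clear of the next. Nop56 fell in BN1 (-0.32 ± 0.05, adjusted p = 4.4e-07) and rose in MA9 (0.88 ± 0.05) and ME (0.71 ± 0.05). Its partner Nop58 was measured at 65.7, 64.9 and 63.5 CPM in WT, 116, 119.97 and 117 CPM in BN1, 174, 189.9 and 173 CPM in MA9 and 152, 147 and 162 CPM in ME. Every leukemia library was above WT, and BN1 was the lowest leukemia. Nop58 rose by 0.86 ± 0.05 in BN1, 1.47 ± 0.05 in MA9 and 1.25 ± 0.05 in ME. Fbl showed rises of 0.73 ± 0.05, 0.89 ± 0.05 and 0.85 ± 0.05. Rrp9, a protein particular to the U3 box C/D particle, which takes part in cutting the precursor, rose by 0.51 ± 0.08, 1.06 ± 0.08 and 0.87 ± 0.08.

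In the box H/ACA particle, Dkc1 (chromosome X, from 75095854 to 75109777) encodes dyskerin, the pseudouridine synthase that is also part of telomerase. Dkc1 gave 56.97, 50.1 and 56.2 CPM in WT, 65.2, 68.5 and 59.7 CPM in BN1, 177, 193 and 170.2 CPM in MA9 and 211, 210.3 and 255 CPM in ME. BN1 stayed near WT without overlapping it, and MA9 and ME stood far above, ME highest. Dkc1 rose by 0.24 ± 0.08 in BN1 (adjusted p = 0.0081), 1.73 ± 0.08 in MA9 and 2.05 ± 0.08 in ME (1.96 without ME replicate 3). With any 1 BN1 or WT library left out, the BN1 estimate was at least 0.19 and its adjusted p at most 0.047. The 3 small partners of dyskerin moved more evenly. Nhp2, which binds the guide RNA, stood at 35.9, 39.7 and 43 CPM in WT, 80.7, 78.1 and 77.9 CPM in BN1, 87.2, 88.1 and 92.5 CPM in MA9 and 83.2, 83.2 and 85.6 CPM in ME. The leukemias lay close together, in the order BN1, ME and MA9 without overlap, and far above WT. Neither BN1 nor MA9 was called different from ME. Nhp2 rose by 0.998 ± 0.06, 1.18 ± 0.06 and 1.09 ± 0.06 in BN1, MA9 and ME, Gar1 by 0.66 ± 0.07, 1.14 ± 0.07 and 1.05 ± 0.07, and Nop10 by 0.49 ± 0.07, 1.15 ± 0.07 and 0.93 ± 0.07. Nolc1, a chaperone of both kinds of particle, rose by 0.62 ± 0.05, 1.39 ± 0.05 and 1.25 ± 0.05.

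Levels of different genes were compared only per kilobase of coding sequence. Counts were per gene, so reads from untranslated parts may be included while the length of those parts is not. The coding length may also differ from that of the transcripts present. The order of genes within a group is therefore approximate. For a given gene the same length was used in every group. On this scale Npm1 stood highest among the members in every group, at 324 CPM per kilobase in WT and 694 in MA9. Ncl followed at 208 and 439. The lowest was Tsr1 in WT (5.67) and MA9 (13.9), Polr1a in BN1 (9.04) and Polr1e in ME (10.9). Within the box C/D core, Nop56 stood above Nop58 in WT (69.4 and 39.8), MA9 (128 and 110.4) and ME (114 and 94.5), and below it in BN1 (55.4 and 72.4). Polr1a stood above Polr1b in WT at 17.4 and 6.91 CPM per kilobase, whereas in BN1 the pair was at 9.04 and 9.52.

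**Figure D4:**
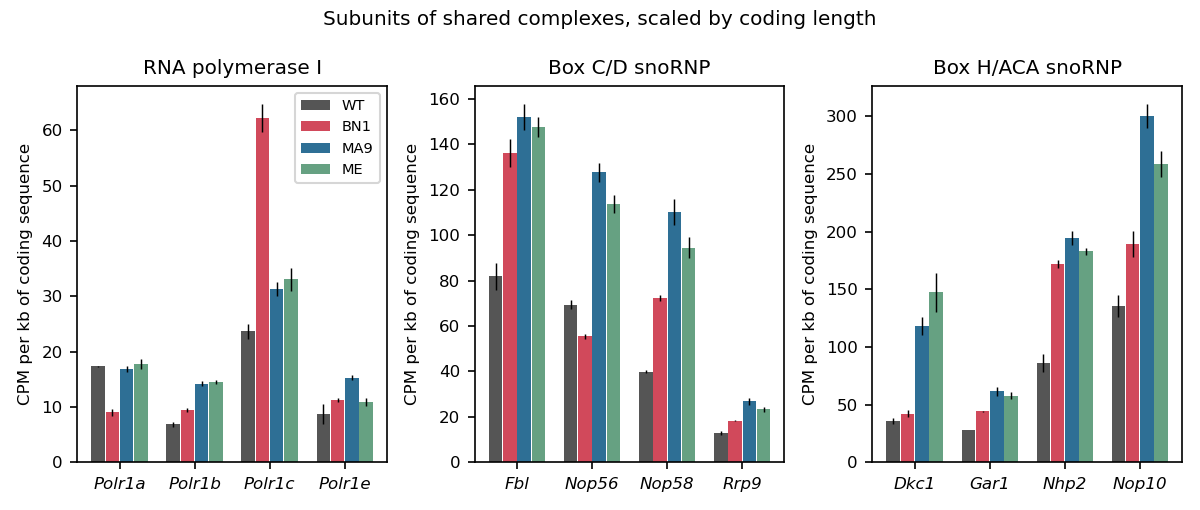
Mean level (CPM per kilobase of coding sequence, error bars SD, n = 3) of subunits that share a complex, in WT, BN1, MA9 and ME. Reads from untranslated parts may be included while their length is not, so the order of genes is approximate. In BN1 Polr1a is at 9.04 while Polr1c is at 62.2, Nop56 is below Nop58, and Dkc1 is at 42.2 against 118 in MA9 and 148 in ME.

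All 7 factors of the small subunit rose in each leukemia. Their medians were 0.94 in BN1, 1.09 in MA9 and 1.01 in ME. Rrp12, which takes part in the export of both subunits, had the largest rise in MA9 and ME. It was measured at 24.3, 28.8 and 24.97 CPM in WT, 52.6, 51.95 and 52.8 CPM in BN1, 77.8, 77.6 and 81.97 CPM in MA9 and 73.9, 69.9 and 68.8 CPM in ME. The groups followed each other as WT, BN1, ME and MA9, with no overlap. Rrp12 rose by 1.01 ± 0.06 in BN1, 1.61 ± 0.06 in MA9 and 1.45 ± 0.06 in ME. Tsr1, a factor of late small subunit maturation, had the largest rise of this class in BN1, with 12.3, 14.97 and 13.7 CPM in WT, 34.02, 34.2 and 32.8 CPM in BN1, 33.1, 32.4 and 35.3 CPM in MA9 and 27.6, 29.1 and 30.9 CPM in ME. BN1 and MA9 overlapped at the top. The Tsr1 changes were 1.30 ± 0.08, 1.30 ± 0.08 and 1.10 ± 0.08.

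Wdr43, a component of the early small subunit processome, was near WT in BN1 and about 2-fold higher in the MLL leukemias. It gave 53.6, 57.4 and 55.3 CPM in WT, 61.4, 64.2 and 63.9 CPM in BN1, 111, 123 and 119 CPM in MA9 and 107, 117 and 111 CPM in ME. BN1 lay just above WT, and MA9 and ME overlapped. Wdr43 rose by 0.19 ± 0.06 in BN1 (adjusted p = 0.0032), 1.09 ± 0.05 in MA9 and 1.01 ± 0.05 in ME. Nat10, the acetyltransferase of small subunit RNA, showed 38.1, 39.6 and 34.6 CPM in WT, 47.6, 44.1 and 48.9 CPM in BN1, 73.4, 73.01 and 78.7 CPM in MA9 and 69.2, 68.6 and 66.96 CPM in ME. WT was lowest, followed by BN1, ME and MA9 without overlap, with changes of 0.33 ± 0.06, 1.003 ± 0.06 and 0.87 ± 0.06. The difference of Nat10 between MA9 and ME was not called. Heatr1, a large scaffold of the processome that also supports RNA polymerase I transcription, had 58.2, 51.7 and 48.7 CPM in WT, 105, 100.1 and 99.3 CPM in BN1, 94.9, 94.9 and 93.8 CPM in MA9 and 106, 108 and 105 CPM in ME. The leukemias lay close together above WT, in the order MA9, BN1 and ME without overlap. BN1 was not called different from MA9 or from ME. Heatr1 rose by 0.94 ± 0.06, 0.84 ± 0.06 and 1.01 ± 0.06 in BN1, MA9 and ME, and Nol6 of the same complex by 0.94 ± 0.06, 0.92 ± 0.06 and 0.92 ± 0.06. Bysl, needed for late small subunit processing, rose by 0.82 ± 0.07, 1.13 ± 0.07 and 0.92 ± 0.07, but 361 bases of its exons overlap Ccnd3 on the other strand.

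Large subunit factors rose in all 8 cases in MA9 and in ME, and in 7 of 8 in BN1. Their medians were 0.68 in BN1, 1.25 in MA9 and 1.17 in ME. Wdr12 (chromosome 1, from 60069785 to 60098645), which with Pes1 and Bop1 forms the PeBoW complex that processes large subunit RNA, had the largest rise of all members in MA9. Its level was 17.7, 17.1 and 18.96 CPM in WT, 40.6, 43.8 and 40.3 CPM in BN1, 101, 103 and 109.7 CPM in MA9 and 69.4, 66.8 and 79.2 CPM in ME. The 4 groups did not overlap and followed each other as WT, BN1, ME and MA9. Wdr12 rose 2.32-fold in BN1 (1.21 ± 0.07, adjusted p = 1.3e-14), 5.84-fold in MA9 (2.55 ± 0.07, adjusted p = 2e-22) and 4.002-fold in ME (2.001 ± 0.07, adjusted p = 8.2e-20). Bop1 came next in MA9 within this complex, with 41.9, 45.1 and 45.9 CPM in WT, 80.2, 78.1 and 81.4 CPM in BN1, 140.3, 132 and 143 CPM in MA9 and 117, 115 and 112 CPM in ME. It kept the same order of groups, with changes of 0.85 ± 0.05, 1.64 ± 0.05 and 1.38 ± 0.05. Pes1 rose more evenly, by 0.88 ± 0.06, 1.17 ± 0.06 and 1.13 ± 0.06.

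Nop2, the enzyme that methylates a cytosine of the large subunit RNA, rose by 0.80 ± 0.06, 1.30 ± 0.06 and 1.18 ± 0.06 in BN1, MA9 and ME. Nop16, an assembly factor of the pre-60S particle, had 19.1, 18.8 and 18.8 CPM in WT, 25.2, 26.9 and 28.6 CPM in BN1, 57.5, 51.2 and 54.1 CPM in MA9 and 53.2, 48.97 and 49.8 CPM in ME. BN1 lay between WT and the MLL leukemias, which overlapped, and the changes were 0.51 ± 0.07, 1.52 ± 0.07 and 1.42 ± 0.07. Gnl3, the GTP-binding protein nucleostemin, known from stem cells, was measured at 37.5, 35.2 and 37.3 CPM in WT, 49.7, 52.2 and 46.2 CPM in BN1, 83.7, 87.5 and 82.7 CPM in MA9 and 81.2, 78.1 and 87.1 CPM in ME. BN1 lay between WT and the MLL leukemias, which overlapped. Gnl3 had the smallest called rise of the class in BN1 (0.43 ± 0.06), and rose by 1.20 ± 0.06 in MA9 and 1.16 ± 0.06 in ME. Ftsj3, a ribose methyltransferase of the large subunit pathway, showed 57.5, 59.8 and 60.5 CPM in WT, 84.3, 89.8 and 86.9 CPM in BN1, 113, 112 and 121 CPM in MA9 and 105, 109.9 and 107 CPM in ME. The groups followed WT, BN1, ME and MA9 without overlap, and the rise was 0.55 ± 0.05, 0.96 ± 0.05 and 0.86 ± 0.05. Between MA9 and ME the difference of Ftsj3 was not called. Rrp1b, a nucleolar protein of large subunit assembly, was measured at 30.3, 30.2 and 27.9 CPM in WT, 31.6, 29.6 and 30.3 CPM in BN1, 56.8, 56.96 and 61.4 CPM in MA9 and 60.8, 66.97 and 60.01 CPM in ME. BN1 overlapped WT, and the MLL leukemias overlapped each other far above it. Rrp1b rose in MA9 (0.99 ± 0.07) and ME (1.09 ± 0.07), and in BN1 the estimate was 0.05 ± 0.07 (adjusted p = 0.51).

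Transcripts of the 3 general nucleolar genes Ncl, Npm1 and Ddx21 rose in every leukemia. Ncl encodes nucleolin, an RNA-binding protein and histone chaperone of the nucleolus, and gave 438, 441 and 444 CPM in WT, 689, 731 and 715 CPM in BN1, 906, 953 and 937 CPM in MA9 and 786, 817 and 825 CPM in ME. The groups did not overlap and again followed WT, BN1, ME and MA9, with changes of 0.69 ± 0.04, 1.08 ± 0.04 and 0.88 ± 0.04. Npm1 encodes nucleophosmin, a chaperone often mutated in human acute myeloid leukemia, and stood at 337, 302 and 307 CPM in WT, 602, 608 and 552 CPM in BN1, 658, 719 and 646 CPM in MA9 and 514, 489 and 591 CPM in ME. MA9 was highest, and BN1 and ME overlapped. Npm1 rose by 0.90 ± 0.06 in BN1, 1.10 ± 0.06 in MA9 and 0.75 ± 0.06 in ME. Since Npm1 has processed pseudogenes and it is not known how multiply matching reads were counted, its level is uncertain. Ddx21, a helicase that works in both RNA polymerase I transcription and precursor processing, showed 129, 124 and 122 CPM in WT, 269, 281 and 272 CPM in BN1, 320.1, 321 and 307 CPM in MA9 and 273, 287 and 287 CPM in ME. BN1 and ME overlapped well above WT, and MA9 was highest. Ddx21 rose by 1.13 ± 0.04, 1.34 ± 0.04 and 1.17 ± 0.04.

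**Figure D5:**
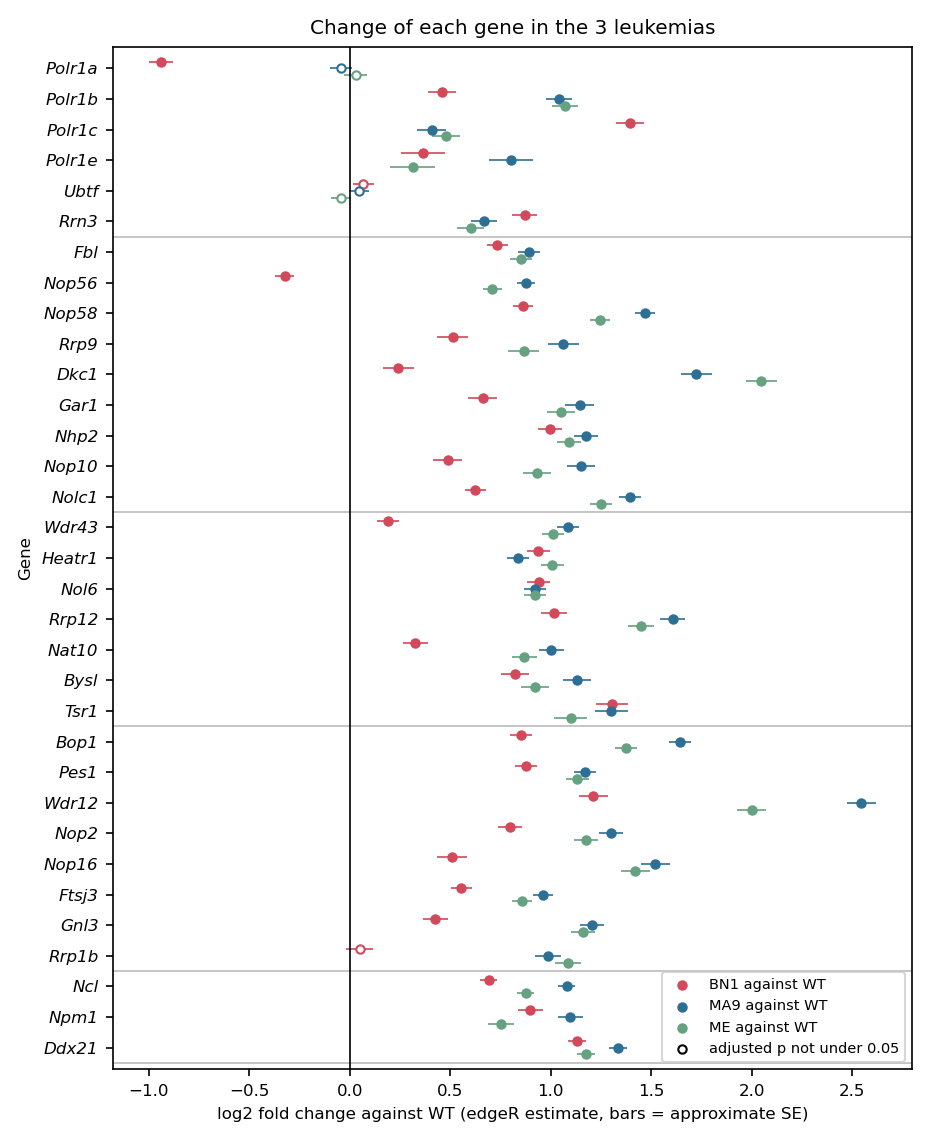
Log2 fold change against WT (horizontal axis, edgeR estimate with approximate SE) of each of the 33 genes in BN1 (red), MA9 (blue) and ME (green), ordered by role, with open points where adjusted p was not under 0.05. In most rows the red point lies left of the blue and green ones, with Polr1c and Rrn3 among the exceptions, and the open points are Ubtf in all 3 leukemias, Polr1a in MA9 and ME, and Rrp1b in BN1.

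The leukemias were then compared with each other, which asks whether the fusion goes with the height of the rise. BN1 stood below both MLL leukemias in most members. Mature neutrophil markers went the other way, 11 of 11 being higher in BN1 than in MA9 and 10 of 11 higher than in ME, and their part in the result was not tested. Against MA9, 27 of 33 members were lower in BN1 and 2 higher, where 34.9% of all tested genes were called lower and 32.8% higher. Against ME, 21 were lower in BN1 and 4 higher, where the background was 33% lower and 31.8% higher. The median log2 differences were -0.50 and -0.38, beside -0.01 over all tested genes in both comparisons. The 21 members called lower against ME were also lower against MA9, and 25.8% of all tested genes had this pair of calls. Of the 33 members, 18 were called above WT in every leukemia and lower in BN1 than in either MLL leukemia, as were 7.6% of all tested genes. Without ME replicate 3, 22 members were lower and 4 higher in BN1 than in ME. Without ME replicate 1 the number higher was 2, Tsr1 and Npm1 losing the call.

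The widest gap was that of Dkc1, with log2 differences of -1.48 ± 0.07 against MA9 (adjusted p = 1.9e-13) and -1.81 ± 0.07 against ME (adjusted p = 7.7e-15; -1.71 without ME replicate 3). Wdr12 (-1.33 ± 0.06), Nop56 (-1.20 ± 0.05) and Nop16 (-1.01 ± 0.07) followed against MA9. Rrp1b (-1.04 ± 0.06), Nop56 (-1.03 ± 0.05) and Polr1a (-0.97 ± 0.06) followed against ME. All 8 large subunit factors were lower in BN1 in both comparisons, with medians of -0.78 and -0.63. Of the small subunit factors, 4 of 7 were lower against MA9 and 3 against ME, and Nol6 was not called at 0.02 ± 0.05 and 0.02 ± 0.05.

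Polr1c and Rrn3 stood higher in BN1 than in both MLL leukemias, as did 25% of all tested genes. Polr1c was higher by 0.99 ± 0.07 against MA9 (adjusted p = 1.5e-13) and 0.92 ± 0.07 against ME (adjusted p = 8.8e-13), and Rrn3 by 0.20 ± 0.06 and 0.27 ± 0.06. Both belong to the RNA polymerase I group, in which Polr1a and Polr1b were lower in BN1 in both comparisons. Tsr1 was higher in BN1 only against ME (0.21 ± 0.07, adjusted p = 0.016), and the call was lost without ME replicate 1. Npm1 was called higher against ME at 0.15 ± 0.06 (adjusted p = 0.044) but lower against MA9 at -0.20 ± 0.06 (adjusted p = 0.0068). The call of Npm1 against ME was lost without any 1 of BN1 replicates 1 and 2, ME replicates 1 and 2 or WT replicate 3, and without ME replicate 3 the estimate was 0.23. Fbl was called lower against MA9 (-0.16 ± 0.05), which did not hold without BN1 replicate 1 or 2 or MA9 replicate 3, and Npm1 against MA9 was not called without BN1 replicate 3.

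MA9 was then compared with ME. Of 33 members, 14 were higher in MA9, 2 lower and 17 not called, where 20.2% of all tested genes were called higher and 20.4% lower. The median log2 difference was 0.10, beside 0.00 over all tested genes. Largest were Wdr12 (0.55 ± 0.06), Polr1e (0.49 ± 0.11), Npm1 (0.34 ± 0.06) and Bop1 (0.27 ± 0.05) on the side of MA9, and Dkc1 (-0.32 ± 0.07) and Heatr1 (-0.17 ± 0.05) on the side of ME. All 3 general nucleolar genes (Ncl, Npm1 and Ddx21) were higher in MA9. Without ME replicate 3, 10 members were higher in MA9, the calls of Rrp9, Nolc1, Rrp12 and Bysl being lost, Wdr12 stood at 0.62, and Dkc1 stood at -0.23 and Npm1 at 0.42. The number was also 10 without MA9 replicate 1 and without MA9 replicate 3.

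Further genes of the pathway, in lists also chosen with earlier results of these data known, were counted in the same comparisons. Of 40 other small subunit factors, 33 rose in BN1, 37 in MA9 and 37 in ME, with medians of 0.59, 0.82 and 0.79, and 1 fell in BN1. Nop14 of the processome (1.96 ± 0.06) led in BN1, and Rrp36 (1.91 ± 0.07 and 1.76 ± 0.07) led in MA9 and ME. In BN1, 27 of the 40 were lower and 5 higher than in MA9, and 20 lower and 4 higher than in ME. Of all tested genes, 34.9% were called lower and 32.8% higher against MA9, and 33% lower and 31.8% higher against ME. Of 42 other large subunit factors, 36 rose in BN1, 39 in MA9 and 38 in ME, with medians of 0.48, 0.79 and 0.69. Of the rest, 2 fell in BN1 and 1 fell in ME. Of the 42, 25 were lower and 9 higher in BN1 than in MA9, and 23 lower and 6 higher than in ME. The export adaptor Nmd3 (1.46 ± 0.08) rose most in BN1, Rrp15 (1.76 ± 0.08) in MA9 and Rrs1 (1.67 ± 0.06) in ME, and Gltscr2, the former symbol of Nop53, fell in BN1 (-0.42 ± 0.06) and ME (-0.14 ± 0.06). Among 11 other snoRNP genes, 7 rose in BN1, 10 in MA9 and 10 in ME, with medians of 0.54, 0.86 and 0.73, and the rest were not called. Of the 11, 9 were lower in BN1 than in MA9 and 8 lower than in ME, with 0 higher in either. Shq1, an H/ACA assembly factor, rose by 1.44 ± 0.12, 1.55 ± 0.12 and 1.40 ± 0.12 in BN1, MA9 and ME. Naf1, of the same step, rose by 0.97 ± 0.10, 1.27 ± 0.10 and 1.40 ± 0.10, and Znhit6, which helps to assemble box C/D particles, by 1.25 ± 0.10, 1.52 ± 0.10 and 1.45 ± 0.10.

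The other 14 RNA polymerase I genes included its remaining subunits and the TAF proteins of its promoter factor. Of these, 13 rose in BN1, 12 in MA9 and 9 in ME, with medians of 0.35, 0.51 and 0.49, and the rest were not called. Of the 14, 5 were lower and 2 higher in BN1 than in MA9, and 5 lower and 4 higher than in ME. The polymerase subunit Polr1g, listed under its older symbol Cd3eap, rose by 0.58 ± 0.08, 1.43 ± 0.08 and 1.20 ± 0.08. A list of genes linked to ribosomal DNA silencing or to repression of the polymerase was split, since of 9 genes 4 rose in BN1, 4 in MA9 and 4 in ME. Of the rest, 4 fell in BN1, 5 fell in MA9 and 5 fell in ME. Rrp8 was among those that rose (0.37 ± 0.07 in BN1 and 0.78 ± 0.07 in ME). So were Smarca5 (0.63 ± 0.05 and 0.39 ± 0.05) and Kdm2b (0.32 ± 0.05 and 0.53 ± 0.05). Mum1 had the largest fall of the list in BN1 (-0.80 ± 0.07) and fell in ME (-0.22 ± 0.07). The genes that fell also include Sirt7, a deacetylase known as an activator of RNA polymerase I (-0.34 ± 0.05, -0.34 ± 0.05 and -0.25 ± 0.05). The number that fell is therefore not a count of repressors alone. Maf1, a repressor of RNA polymerase III that also limits ribosome production, fell in each (-0.69 ± 0.05, -0.83 ± 0.06 and -0.59 ± 0.06). Baz2a, the large subunit of the complex that silences ribosomal DNA, fell in each leukemia, with estimates of -0.31 ± 0.05 in BN1, -1.20 ± 0.05 in MA9 and -1.08 ± 0.05 in ME.

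Myc, a known activator of these genes, rose in each leukemia. Its level was 45.4, 50.99 and 48.2 CPM in WT, 72.7, 68.1 and 74.6 CPM in BN1, 142, 130.01 and 139.8 CPM in MA9 and 162, 158 and 139 CPM in ME. No groups overlapped except MA9 and ME. Myc rose by 0.58 ± 0.06 in BN1, 1.51 ± 0.06 in MA9 and 1.67 ± 0.06 in ME. It was lower in BN1 than in MA9 (-0.93 ± 0.06) and ME (-1.09 ± 0.06). Mitosis genes went the other way. Of 12 tested, 12 fell in BN1, 10 in MA9 and 10 in ME, where Bub1 rose in both MLL leukemias. Their summed level was 3005 to 3188 CPM for WT, 1369 to 1389 for BN1, 2042 to 2092 for MA9 and 1963 to 2151 for ME. Beside the lower nucleolar genes of BN1 relative to MA9 and ME, 11 of 12 mitosis genes were lower in each comparison, and the part of Myc and of the mitosis genes in the result was not tested.

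Position and sequence were read from the annotation, which the list did not use. The 33 protein-coding genes lie on 16 chromosomes. Guide RNAs of snoRNPs are cut from the introns of host genes, and 7 of the 33 members (21.2%) hold at least 1 annotated snoRNA, against 1.71% of 12731 tested protein-coding genes. The hosts are Nop56 with 5, Nop58 with 4, Wdr43, Gnl3 and Ncl with 3 each, Tsr1 with 2 and Dkc1 with 1, and all 21 snoRNAs lie in introns of the coding transcripts. Among these hosts Nop56 was called lower in BN1 than in WT, while the others were called higher, by 0.19 (Wdr43) to 1.30 (Tsr1). Dkc1, also a host, had the widest gap between the leukemias. Polr1a, the other member called lower in BN1 than in WT, holds no annotated snoRNA. Whether hosting goes with the level was not tested. Exons of 10 members overlap a gene on the other strand, for example by 1159 bases of Srr in Tsr1, 45 bases of Mpp1 in Dkc1 and 5 bases of Idh3b in Nop56. Libraries were stranded, yet the labels do not say if counting took the strand into account, so the values of such pairs, and of Bysl with Ccnd3, are uncertain to that extent.

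Promoters of the members were searched for the E-box CACGTG, the binding motif of Myc with its partner Max, and for CCGGAAGT, a motif of ETS factors. Windows ran from 250 bases before to 50 after the start and both strands were read, the first motif being its own reverse complement. Each motif was searched on its own, so matches of different motifs may share bases. Windows of RefSeq (GRCm38.p6) were found for 28 of the 33 members. CACGTG was present in 5 members (17.9%), namely Nop2, Pes1, Rrn3, Tsr1 and Wdr43, against 11.3% of 11232 tested genes, and CCGGAAGT in 7 (25%), namely Gar1, Heatr1, Nhp2, Polr1c, Polr1e, Rrn3 and Tsr1, against 8.21%. The related hexamer CACGCG was found in 10 (35.7%) against 18.2%. These shares are per gene, and a gene may have several windows. Counted per window, 13.9% of the 36 windows of members hold CACGTG, 19.4% CCGGAAGT and 30.6% CACGCG. For the 14361 windows of tested genes the shares were 9.48%, 7.08% and 15.4%. Of all 32851 windows, which include untested genes, 7.15% hold CACGTG, 3.89% CCGGAAGT and 9.27% CACGCG. Median GC content was 59.5% in the members' windows and 59.3% in those of tested genes. The E-box lies before the start in Nop2 and Rrn3, the initiation factor that was highest in BN1, and after it in Pes1, Tsr1 and Wdr43. The stretches before the start are shown with the motif in capitals.
Nop2 chr6:125131793-125131858 (+): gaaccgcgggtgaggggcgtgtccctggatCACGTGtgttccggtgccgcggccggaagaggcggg
Rrn3 chr16:13780454-13780519 (+): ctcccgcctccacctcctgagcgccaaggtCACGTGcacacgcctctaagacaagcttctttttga
Rrn3 chr16:13780621-13780686 (+): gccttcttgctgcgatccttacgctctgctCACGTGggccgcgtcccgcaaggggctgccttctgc
Stretches with the ETS motif in capitals, in either orientation, are shown for Polr1c, the member that rose most in BN1, for both H/ACA genes that hold it, and for Heatr1.
Polr1c chr17:46248050-46248117 (-): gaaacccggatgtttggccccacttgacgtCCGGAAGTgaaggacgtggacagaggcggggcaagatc
Nhp2 chr11:51619720-51619772 (+): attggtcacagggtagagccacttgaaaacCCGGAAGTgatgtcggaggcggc
Gar1 chr3:129831403-129831470 (-): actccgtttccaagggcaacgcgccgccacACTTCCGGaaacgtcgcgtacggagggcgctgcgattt
Heatr1 chr13:12395329-12395374 (+): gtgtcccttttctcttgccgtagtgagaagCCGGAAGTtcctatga
A match describes these letters and is no measurement of binding. Of the 5 members with CACGTG, Nop2, Pes1 and Wdr43 were lower in BN1 than in both MLL leukemias, Rrn3 was higher in BN1 than in both, and Tsr1 was higher in BN1 than in ME.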

How the data were processed

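RNA of CD45.2-positive marrow cells from 12 libraries in 4 groups was measured by poly(A)-selected sequencing. Raw counts per gene were deposited by the authors for 35976 symbols. Per the submitters' processing notes, HISAT2, featureCounts and DESeq2 were used with mm10. Their versions, the annotation, the strand setting and the treatment of multiply matching reads are not stated there.

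Genes were filtered with filterByExpr (15334 kept) and scaled by TMM (factors 0.928 to 1.051). One edgeR quasi-likelihood model with robust dispersion covered all libraries, with calls at adjusted p under 0.05 (Benjamini-Hochberg, all genes). CPM uses these factors, and ± after log2 fold changes is an approximate SE from the test statistic. The fit was tested on simulated data. Positions and coding lengths are from GENCODE M21 (GRCm38), promoters from RefSeq. Members and lists were chosen with earlier results of these data known. Values in every library are given for Polr1a, Polr1b, Ubtf and Rrn3, for the largest and smallest called change of each role against WT, for up to 4 called members per direction between leukemias and for members called against the majority, plus Nop58 and Myc. Of other lists, up to 3 genes per direction were named, plus Sirt7. Values of some single marker genes are not reported here. Alternatives were other scaling, filters, DESeq2, limma-voom, 2-group fits, a replicate block and leaving out libraries. DESeq2 1.42.0, limma 3.58.1 and edgeR 4.0.16 ran in R 4.3.3, and figures were drawn in Python 3.11.15 with matplotlib 3.10.9.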

Additional observations from a re-analysis of the deposited data

How the results depend on the processing

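No member called with TMM changed direction under the alternatives run. With library size as the only scaling, the median of all genes moved by 0.12, 0.17 and 0.11 (log2) in BN1, MA9 and ME against WT, and relative to it the members' medians were 0.71, 1.11 and 1.02, beside 0.70, 1.11 and 1.02 with TMM. Polr1a, not called in MA9 with TMM (-0.05), was then called higher at 0.13, 20 members instead of 14 were higher and 1 instead of 2 lower in MA9 than in ME (17 higher with upper-quartile scaling), and all genes split into 3888 higher and 2509 lower between MA9 and ME in place of 3095 and 3130. Leaving out 1 library at a time gave 2 to 5 members higher in BN1 than in ME and 10 to 16 higher in MA9 than in ME. Over the 9 other alternatives, 29 to 31 members were called higher than WT in BN1, while MA9 had 31 to 33 and ME 31 to 32. With a replicate block, 29, 31 and 31 members were higher against WT, 27 and 21 lower in BN1 than in MA9 and ME, 2 and 3 higher (Npm1 not called), and 14 higher and 2 lower in MA9 than in ME. No pairing of libraries by number was seen. Deviations of same-numbered libraries correlated at -0.12 to 0.11 over 18 pairs, 2 of them above 0.1, and 3 of 12 libraries correlated best with their own number. With 3 libraries a group such a check cannot exclude a pairing. Each member had at least 217 counts in every library, and each group has 3 libraries.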

Other observations

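The RNA exosome, the nuclease complex that trims precursor ribosomal RNA and destroys its by-products, was measured through 14 genes. Of these, 9 rose in BN1, 14 in MA9 and 14 in ME, with medians of 0.28, 0.63 and 0.56. Exosc8 was the 1 gene that fell, in BN1 (-0.27 ± 0.07). The nuclease Dis3 rose by 1.54 ± 0.07 in BN1, 0.98 ± 0.07 in MA9 and 0.80 ± 0.07 in ME. Exosc5 rose by 0.72 ± 0.06, 1.32 ± 0.06 and 1.38 ± 0.06. Dis3 was higher in BN1 than in MA9 (0.56 ± 0.07) and ME (0.74 ± 0.07), as Polr1c was among the members, while 9 exosome genes were lower in BN1 than in MA9 and 9 lower than in ME.

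Among genes related by sequence to members, Npm3, a histone chaperone of the nucleophosmin family, changed by 0.55 ± 0.09 in BN1, 1.24 ± 0.09 in MA9 and 0.96 ± 0.09 in ME. Gnl3l, the relative of nucleostemin, changed by 0.20 ± 0.07, 1.23 ± 0.06 and 0.36 ± 0.07. Of the largest subunits of the other RNA polymerases, Polr2a fell in BN1 (-0.15 ± 0.04) and Polr3a rose (0.63 ± 0.07), where Polr1a changed by -0.94 ± 0.06. Fbll1 and Ubtfl1 had no counts in any library.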
